A study of Mus musculus with 8 samples.

Results

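The goblet cell mucus genes are a list of 10 genes that encode the gel, the membrane mucins and the helper proteins of colonic mucus, with the transcription factors of the cells that make it. A gene counted as measured when the value table held a probe set whose only annotated symbol was that gene, and 9 of the 10 were measured, each by 1 probe set, among 16645 genes in all. The 9 were Muc2, Muc4, Muc13, Tff3, Agr2, Zg16, Spdef, Spink4 and Atoh1. Fcgbp, which encodes the IgG Fc-binding protein of the mucus gel, had 3 probe sets that were each annotated to several genes, so no value is given for it. The RNA was labelled as coming from the far distal end of the colon of male BALB/c mice aged 5 weeks, and each sample went on an Affymetrix MoGene 1.0 ST array of its own. In the 4 AA samples appendicitis had been induced and the appendix taken out 1 week later. In the 4 SS samples 2 sham operations had been done 1 week apart, so both groups went through a pair of operations. Each of the 2 batches named in the labels held 2 AA and 2 SS arrays. No label ties a sample to an animal, and a p-value here reflects only how far the samples of a group lay apart, which may be technical.

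Colonic mucus is a gel of the secreted mucin MUC2, which goblet cells fold, glycosylate and link into a network before release. It keeps gut bacteria away from the epithelium, and a failing mucus barrier is a known feature of colitis. Goblet cells arise from crypt progenitors through ATOH1, which sets the secretory fate, and mature under SPDEF. AGR2, a protein disulphide isomerase, is needed to make MUC2 in the endoplasmic reticulum, while TFF3 and ZG16 are secreted along with it. The membrane mucins MUC4 and MUC13 form the glycocalyx on the epithelial surface and are not limited to goblet cells.

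Promoters were looked up for the 10 genes in RefSeq (build GRCm38.p6; the build behind the array values is not given in the sources used here), as windows from 250 bases before to 50 bases after a start. Those of 7 genes were found, in 8 windows. The windows of Muc2, Muc4 and Spdef are printed because Muc2 is the gel itself, and because Muc4 had the widest range over arrays and Spdef was the member with the highest Pearson's r to Muc4. Capitals mark CAGCTG, an E-box of the kind bound by ATOH1, and TATAA, the core of the TATA box, searched on both strands.
Muc2, chr7:141690090-141690389, plus strand: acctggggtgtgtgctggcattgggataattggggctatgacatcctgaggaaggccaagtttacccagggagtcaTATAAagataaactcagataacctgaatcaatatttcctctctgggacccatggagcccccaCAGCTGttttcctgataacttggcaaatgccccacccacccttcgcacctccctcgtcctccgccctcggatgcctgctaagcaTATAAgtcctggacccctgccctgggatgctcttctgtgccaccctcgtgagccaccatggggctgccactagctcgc
Muc4, chr16:32735636-32735935, plus strand: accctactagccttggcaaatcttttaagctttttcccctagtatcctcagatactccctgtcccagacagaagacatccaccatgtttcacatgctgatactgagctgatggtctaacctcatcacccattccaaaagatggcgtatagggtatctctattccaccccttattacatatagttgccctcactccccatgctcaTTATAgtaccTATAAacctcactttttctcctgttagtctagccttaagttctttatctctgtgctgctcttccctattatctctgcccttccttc
Spdef, chr17:27728902-27729201, minus strand: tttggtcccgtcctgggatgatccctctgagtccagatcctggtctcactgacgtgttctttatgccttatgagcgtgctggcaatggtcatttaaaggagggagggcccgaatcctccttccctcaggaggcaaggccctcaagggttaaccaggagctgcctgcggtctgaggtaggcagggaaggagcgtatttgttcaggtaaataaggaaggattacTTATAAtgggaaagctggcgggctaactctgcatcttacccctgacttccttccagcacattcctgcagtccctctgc
In Muc2 the E-box lay 112 bases before the start, with TATAA at 174 and at 28 bases before it. CAGCTG was present in 2 of the 8 windows (Muc2 and Fcgbp) and in 16.3% of all 32851 promoters in the table. TATAA was present in 4 of the 8 (Muc2, Muc4, Fcgbp and Spdef, where its matches on both strands overlap) and in 24.9% of all. Muc13, Agr2 and Atoh1 held neither in these windows.

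All values below are log2 signals as deposited, so 1 unit is a doubling, and they ran from 2.85 to 14.72 over the array. The labelled tissue was checked with Hoxd13 and Hoxb13, genes of the hindmost gut, in which 1 array stood apart, and with the colonocyte gene Car1 (13.55 to 13.89 in all arrays), while Sis and Lct of small intestinal enterocytes lay at no more than 4.03 and 6.34. Hoxd13 stood at 6.54 in AA replicate 2 and at 8.82 to 10.62 in the other 7 arrays. Hoxb13 was also lowest there, at 8.23 against 9.63 to 10.61, while Hoxa13 of the same group was 8.31, inside the 7.88 to 8.50 of the other arrays. Fabp2, a fatty acid binding protein of absorptive cells, was highest there, at 12.68 against 6.72 to 10.05. Adipocyte markers were highest in SS replicate 1 (list mean 1.55, against -0.72 to 0.43 elsewhere). Whether the position of AA replicate 2 differed from its label was not tested. The differences of the members are given with and without each of these arrays, and those of other named genes and lists where leaving either out moved a difference or a median by over 1.5 times or turned it, a choice made after seeing the data.

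No goblet cell mucus gene differed between AA and SS by more than the spread of the arrays. Differences (AA mean minus SS mean) ran from -0.07 for Muc2 to 0.52 for Muc4, with a median of 0.05 over the 9 genes, against 0.0066 over all 16645 genes. None of the 9 reached an adjusted p under 0.05 in limma, where 0% of all probe sets did so in either direction. Their adjusted p-values were 0.773 to 0.986. At an unadjusted p under 0.05 there were again 0 of 9, against 5.38% of probe sets higher in AA, 2.70% lower and 8.08% in either direction. AA and SS arrays overlapped in all 9 genes. Among probe sets, the AA group lay wholly above the SS group in 4.21% and wholly below it in 2.18%, 6.39% together. Counted by gene, with 1 probe set each, the unadjusted p was under 0.05 in 7.97%, and the groups lay apart in 4.33% (AA above), 1.84% (AA below) and 6.18% (either). By counts, 8697 of all 16645 genes were higher in AA and 7948 were lower. Of the 9 members, 7 were higher and 2 were lower, which became 4 and 5 without SS replicate 1. That array had the lowest value in 7 of the 9. Quantile normalization (Muc13 and Tff3) and median centring (Muc13 and Agr2) each turned 2 genes and left 5 higher. Over all probe sets, 977 higher and 490 lower ones at an unadjusted p under 0.05 became 953 and 781 after quantile normalization and 691 and 823 after median centring. Without AA replicate 2 the differences were -0.24 for Muc2, 0.07 for Muc4, 0.02 for Muc13, 0.095 for Tff3, 0.08 for Agr2, 0.06 for Zg16, -0.01 for Spdef, 0.37 for Spink4 and 0.02 for Atoh1. Without SS replicate 1 they were -0.19, 0.26, -0.0084, 0.01, -0.05, 0.02, -0.05, 0.13 and -0.13 in the same order. Spdef and Atoh1 turned without the first of these arrays, and Muc13, Agr2 and Spdef without the second. In such bulk tissue, fewer goblet cells and less RNA per goblet cell cannot be told apart.

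**Figure D1:**
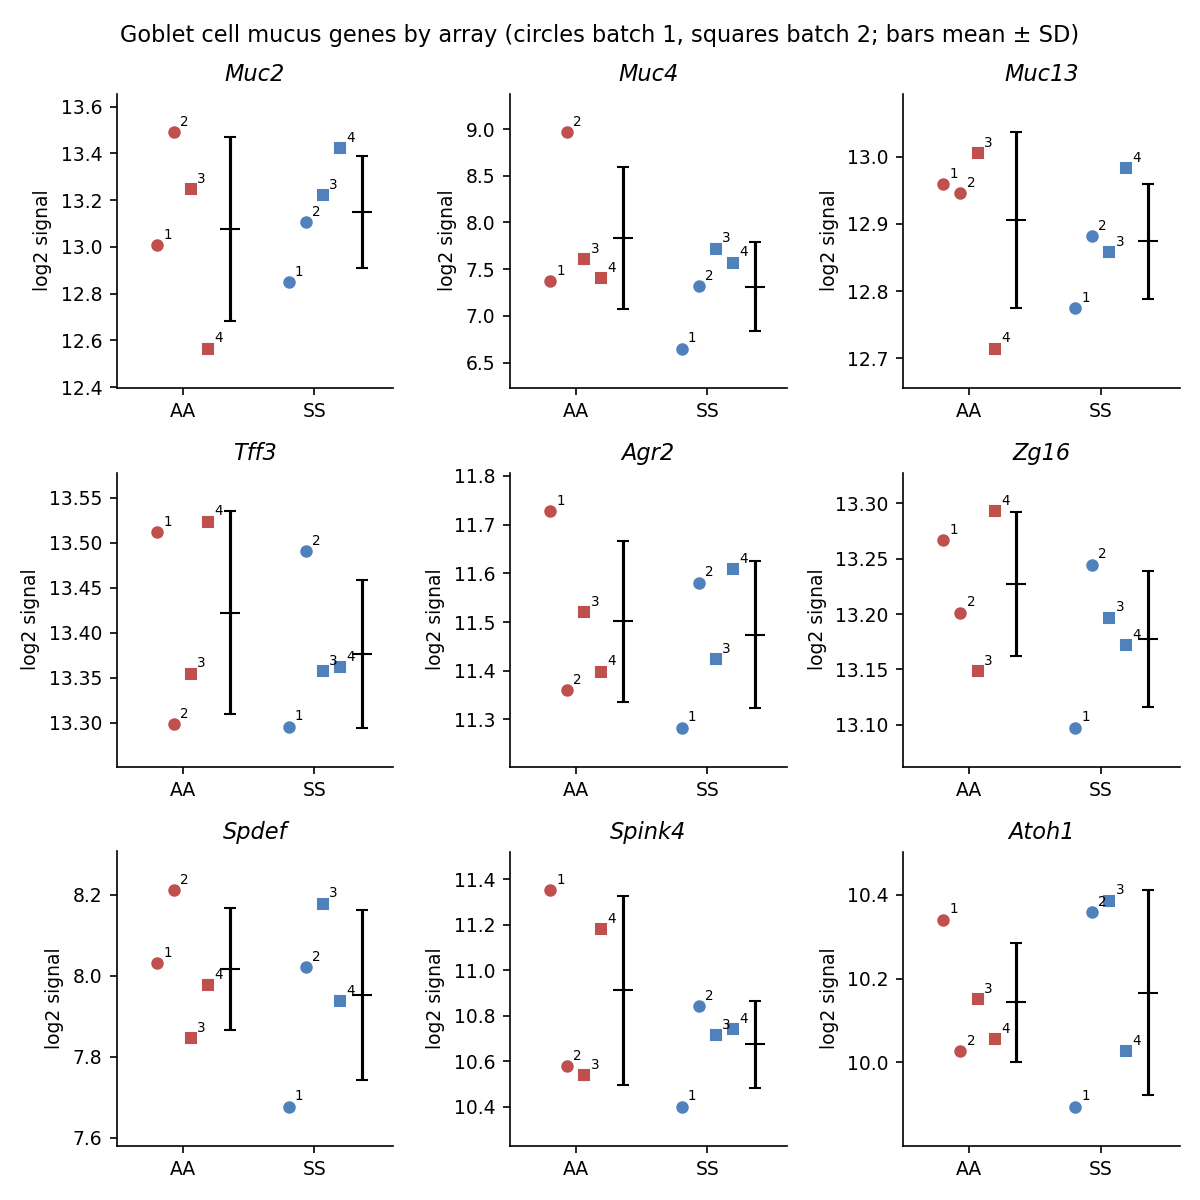
Log2 signal (y axis, own range in each panel) of the 9 measured genes in each AA and SS array. Points are arrays numbered by replicate, circles batch 1 and squares batch 2, and bars are the group mean with 1 SD (n = 4). The groups overlap in every panel, AA replicate 2 stands above the others for Muc4 at 8.96, and SS replicate 1 is lowest in 7 of 9 panels.

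Among the mucins, Muc2 stood at 13.01, 13.49, 13.25 and 12.56 in AA replicates 1 to 4 and at 12.85, 13.10, 13.22 and 13.42 in SS replicates 1 to 4. The highest and the lowest of the 8 values were both AA arrays. The means of 13.08 ± 0.39 (SD, n = 4) and 13.15 ± 0.24 (SD, n = 4) gave a ratio of AA to SS of 0.951, with a 95% interval of 0.696 to 1.30. Muc13, a membrane mucin of the intestinal surface, stood at 12.96, 12.95, 13.01 and 12.71 in AA and at 12.77, 12.88, 12.86 and 12.98 in SS. Its difference of 0.03 ± 0.10 (SE) had a 95% interval of -0.19 to 0.25, so its ratio lay between 0.878 and 1.19. As for Muc2, the lowest value was that of AA replicate 4.

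Muc4, the large membrane mucin that also engages the receptor ErbB2, was the member with the widest range. It stood at 7.37, 8.96, 7.61 and 7.41 in AA replicates 1 to 4 and at 6.65, 7.32, 7.72 and 7.57 in SS replicates 1 to 4. AA replicates 1, 3 and 4 lay among the SS values and AA replicate 2 lay above all other arrays. The mean difference of 0.52 ± 0.37 (SE) was a 1.44-fold ratio with a 95% interval of 0.808 to 2.56. It was 0.07 without AA replicate 2 and -0.07 without that array and SS replicate 1.

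Of the proteins released with the mucin, the trefoil peptide Tff3, which protects and restores the epithelium, stood at 13.51, 13.30, 13.35 and 13.52 in AA and at 13.30, 13.49, 13.36 and 13.36 in SS. All 8 values fell within 0.23 units. Zg16, a lectin that binds Gram-positive bacteria in the mucus, stood at 13.27, 13.20, 13.15 and 13.29 in AA and at 13.10, 13.24, 13.20 and 13.17 in SS, a range of 0.20 and the narrowest of the 9 genes. Its 95% interval of -0.14 to 0.24 was also the narrowest. The wider intervals of Muc2 and Muc4 leave room for larger differences that 4 arrays a group could not show.

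Spink4, a Kazal-type protease inhibitor secreted by goblet cells, stood at 11.35, 10.58, 10.54 and 11.18 in AA and at 10.40, 10.84, 10.71 and 10.74 in SS. AA replicates 1 and 4 lay above all SS arrays, and AA replicates 2 and 3 lay below all SS arrays other than replicate 1. The difference of 0.24 ± 0.20 (SE) was the largest after that of Muc4, with a 95% interval of -0.21 to 0.69. Agr2 stood at 11.73, 11.36, 11.52 and 11.40 in AA and at 11.28, 11.58, 11.42 and 11.61 in SS. Its highest value was in AA and its lowest in SS, both in batch 1, and the means differed by 0.03 ± 0.12 (SE).

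The transcription factors of the lineage did not separate the groups either. Spdef stood at 8.03, 8.21, 7.85 and 7.98 in AA and at 7.68, 8.02, 8.18 and 7.94 in SS, a difference of 0.06 ± 0.13 (SE). Atoh1 stood at 10.34, 10.03, 10.15 and 10.06 in AA and at 9.89, 10.36, 10.39 and 10.03 in SS, a difference of -0.02 ± 0.14 (SE). For both genes SS replicate 1 was the lowest array. The 95% intervals were -0.23 to 0.35 for Spdef and -0.33 to 0.28 for Atoh1.

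The small mean differences of several members were made of opposite values in the 2 batches. In batch 1 AA was above SS in 9 of 9 genes, and in batch 2 in 3 of 9 (Tff3, Zg16 and Spink4). Among all 16645 genes AA was above SS in 9192 in batch 1 and in 8498 in batch 2. Muc2 differed by 0.27 in batch 1 and by -0.42 in batch 2, Spdef by 0.27 and -0.15, and Muc4 by 1.18 and -0.14. In an interaction fit over all probe sets these 3 genes had limma adjusted p-values of 0.539, 0.542 and 0.532, and 0 of the 9 genes had an unadjusted p under 0.05, against 9.46% of probe sets and 9.14% of genes. Batch 1 held SS replicate 1 and AA replicate 2, whose adipocyte and Hoxd13 values are given above. Their part in these differences was not tested apart from leaving them out.

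**Figure D2:**
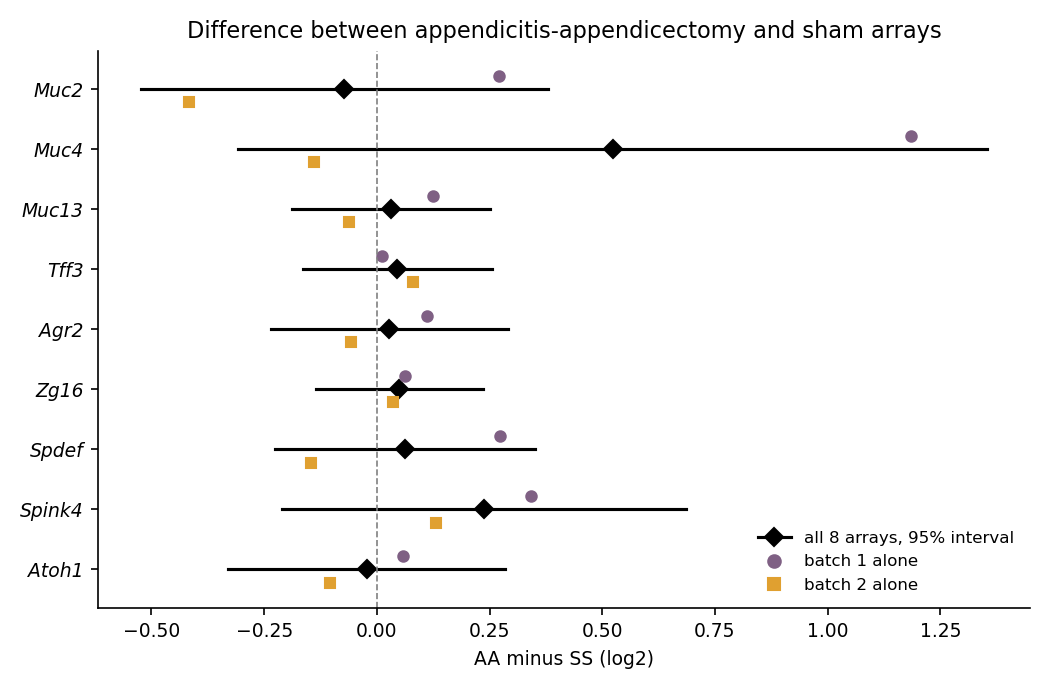
AA minus SS difference (x axis, log2 units) of the 9 genes. Diamonds and lines are the limma estimate from all 8 arrays with its 95% interval, circles batch 1 alone and squares batch 2 alone (2 arrays of each group). Every interval includes 0, and 6 of the 9 genes lie on opposite sides of 0 in the batches.

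Pearson's r over the 8 arrays was positive in 27 pairs of members and negative in 9, and ran from -0.565 to 0.906. All 36 pairs were compared, with exact permutation of the pairings and adjustment over the 36. Pairings were permuted over all 8 arrays and, since batch means had been removed from the values, also within batches, an alternative added after seeing the data. Over all arrays 2 pairs had an adjusted p under 0.05, and within batches 0 of 36 did, where the smallest p the 576 pairings allow is 0.00174. Tff3 and Spink4 varied together at a Pearson's r of 0.906 (exact permutation p = 0.000893, adjusted p = 0.0321) and a Spearman's rho of 0.952 (exact permutation p = 0.00114, adjusted p = 0.0411). Within batches its exact permutation p for r was 0.00174 (adjusted p = 0.0625), the smallest the pairings allow. A pair alone at that p cannot pass the threshold after adjustment over the 36, so the miss shows no weaker likeness. Zg16 and Spink4 had an r of 0.891 (exact permutation p = 0.00246, adjusted p = 0.0442) and a rho of 0.881 (exact permutation p = 0.00724, adjusted p = 0.13). Within batches its exact permutation p for r was 0.00868 (adjusted p = 0.104). Without the 2 arrays farthest from the median of the first gene, r was 0.817 and 0.831. Over the 4 arrays of batch 1 and of batch 2, where no test was run, r was 0.884 and 0.954 for the first pair and 0.852 and 0.978 for the second.

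The next pairs missed the threshold. Tff3 and Zg16 had an r of 0.872 (exact permutation p = 0.00561, adjusted p = 0.0673) and a rho of 0.833 (exact permutation p = 0.0154, adjusted p = 0.185). Muc2 and Muc13 had an r of 0.821 (exact permutation p = 0.0123, adjusted p = 0.110) and a rho of 0.690 (exact permutation p = 0.0694, adjusted p = 0.500), with an r of 0.686 without the 2 farthest arrays. Muc4 and Spdef had an r of 0.773 (exact permutation p = 0.0333, adjusted p = 0.240) and a rho of 0.548 (exact permutation p = 0.171, adjusted p = 0.560). Without AA replicate 2 and SS replicate 1, the highest and lowest arrays for Muc4, its r was 0.147. Leaving them out also narrows the range of Muc4. Over the arrays of batch 1 and of batch 2, where no test was run, r was 0.883 and 0.460. The lowest r was -0.565 for Muc2 and Tff3 (exact permutation p = 0.147, adjusted p = 0.442; rho = -0.429, exact permutation p = 0.299, adjusted p = 0.734), and it was -0.08 without the 2 farthest arrays.

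**Figure D3:**
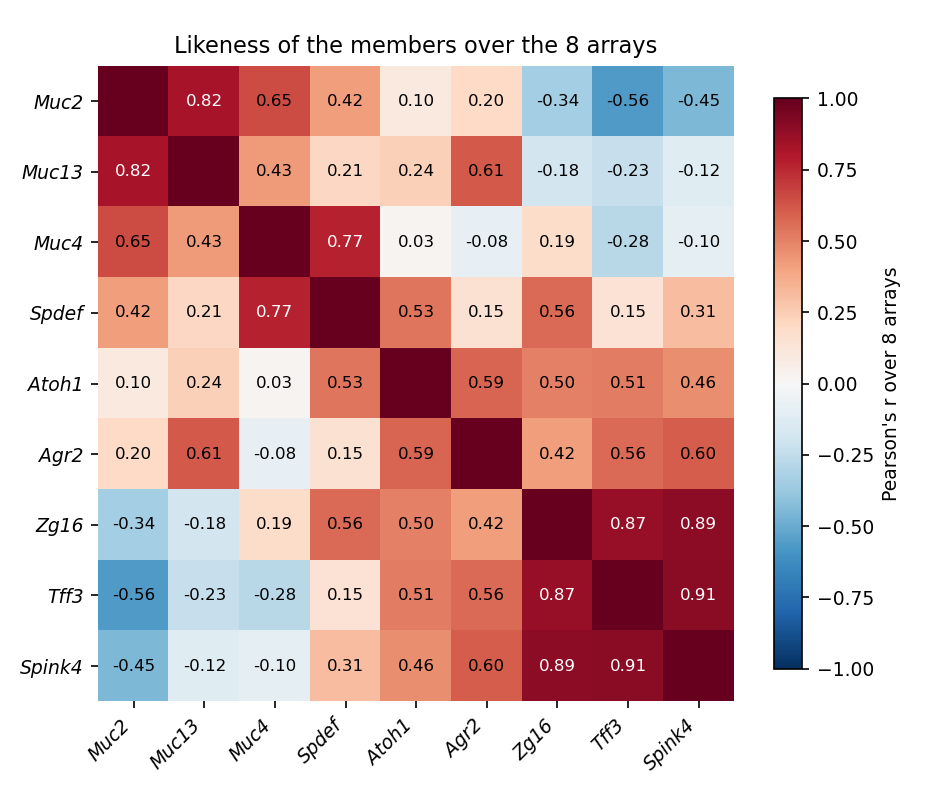
Pearson's r over the 8 arrays for each pair of the 9 genes, from blue (-1) to red (1). Tff3, Zg16 and Spink4 form a block at 0.87 to 0.91, and Muc2 is nearest to Muc13 (0.82) and on the negative side with that block.

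The high Muc4 value of AA replicate 2 stood beside the low Hoxd13 and high Fabp2 of the same array. Retnlb, a goblet cell protein that acts against bacteria and was picked after its values were seen, was also highest there, at 10.88 against 6.44 to 9.08 in the other 7 arrays. Alpi, the intestinal alkaline phosphatase, was at 8.90 against 5.36 to 6.59. The 9 small intestine markers as a list had a mean of 0.67 in AA replicate 2 and of -0.36 to 0.09 in the others, but Fabp6, Apoa4, Lct and Sis were not raised in that array (5.34, 5.73, 5.68 and 3.92, against highest values of 6.21, 6.22, 6.34 and 4.03). Among the members AA replicate 2 was also the highest array for Muc2 (13.49, next 13.42) and Spdef (8.21, next 8.18). The values of Tff3 (13.30), Zg16 (13.20) and Muc13 (12.95) in that array lay within the range of the other arrays. The part of these markers in the Muc4 value was not tested.

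**Figure D4:**
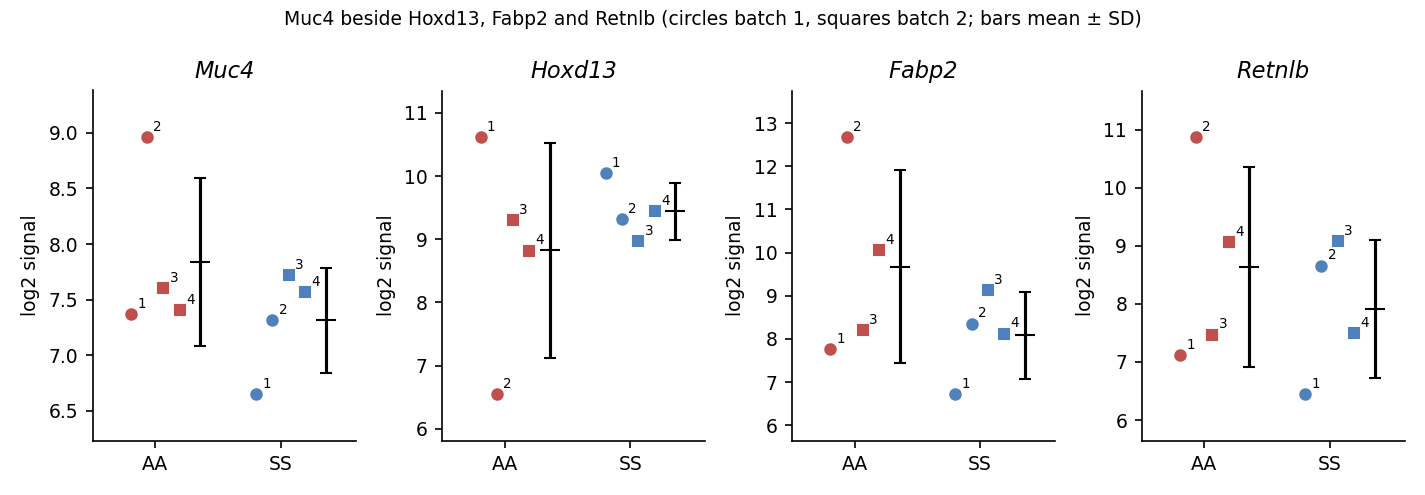
Log2 signal (y axis, own range in each panel) of Muc4, Hoxd13, Fabp2 and Retnlb in each AA and SS array. Points are arrays numbered by replicate, circles batch 1 and squares batch 2, bars the mean with 1 SD (n = 4). AA replicate 2 is highest for Muc4, Fabp2 and Retnlb and lowest for Hoxd13 (6.54).

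Other genes of mucus and its making were read from lists, 1 probe set per gene. Of all 16645 genes, 8697 were higher and 7948 lower in AA. At an unadjusted p under 0.05, 5.67% of all genes were higher and 2.29% lower in AA. None of the genes named here had an adjusted p under 0.05 in limma. Other mucins had 1 of 8 measured genes higher at that level and 0 lower, with a median difference of -0.0065. The 1 gene was Muc16, a mesothelial mucin. Its AA mean was 6.25 ± 0.94 (SD, n = 4) and its SS mean 5.07 ± 0.62 (SD, n = 4). It was 7.61 in AA replicate 3, the array with the highest mesothelium list mean (1.32, against -1.21 to 0.33 elsewhere). Without that array its difference was 0.63 in place of 1.17. Muc5b, a gel-forming mucin of the airway, and Muc1, a membrane mucin, differed by -0.14 ± 0.11 (SE) and -0.11 ± 0.11 (SE), and Muc5b by -0.04 without SS replicate 1. The median of the other mucins was -0.0104 without AA replicate 2 and 0.04 without SS replicate 1.

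Among 25 other goblet cell products 10 were higher and 15 lower, 0 of them at an unadjusted p under 0.05, and the median difference was -0.05 (-0.02 without AA replicate 2 and -0.12, with 3 lower at that level, without SS replicate 1). Best2, a bestrophin anion channel of colonic goblet cells, was among the 3 genes of smallest p and differed by -0.55 ± 0.32 (SE). It was 7.69 in AA replicate 2 against 8.65 to 9.51 elsewhere, and differed by -0.17 ± 0.18 (SE) without that array. Without AA replicate 1, its highest array at 9.51, it differed by -0.90 ± 0.23 (SE). Capn8, a calpain of mucous cells, differed by -0.21 ± 0.11 (SE), and the chemokine Ccl6 by 0.25 ± 0.15 (SE). Of 20 regulators of the secretory lineage 9 were higher and 11 lower, again 0 at an unadjusted p under 0.05, and the median was -0.02, or 0.02 without AA replicate 2. Xbp1 and Bhlha15, factors of secretory capacity, differed by 0.19 ± 0.09 (SE) each, and Creb3l4 by -0.24 ± 0.13 (SE), or -0.36 without SS replicate 1.

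Of 41 genes of mucin glycosylation 25 were higher, 3 of them and 0 of the lower ones at an unadjusted p under 0.05. The median was 0.08, from 0.26 within batch 1 and -0.08 within batch 2. It was 0.04 without AA replicate 2 and turned to -0.04 without SS replicate 1, where 19 of 41 were higher, 1 of them and 2 of the lower ones at that level. The 3 were C1galt1c1, the chaperone of the core 1 galactosyltransferase, at 0.33 ± 0.12 (SE), B4galt4, a galactosyltransferase, at 0.32 ± 0.13 (SE) (0.19 without SS replicate 1), and St3gal1, a sialyltransferase that caps core 1 glycans, at 0.79 ± 0.33 (SE). St3gal1 ran from 6.77 to 8.63 in AA and from 6.78 to 6.91 in SS, and AA replicate 2 was its highest array, without which the difference was 0.41 ± 0.18 (SE).

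Genes of protein folding and export were higher in 24 of 28, 6 of them at an unadjusted p under 0.05 and 0 of the lower ones. The median was 0.11, from 0.17 within batch 1 and 0.05 within batch 2. Without SS replicate 1, 21 of 28 were higher, 3 of them and 1 of the lower ones at that level, with a median of 0.08. Kdelr3, a receptor that returns chaperones to the endoplasmic reticulum, ran from 7.53 to 7.62 in AA and from 6.97 to 7.14 in SS, a difference of 0.52 ± 0.08 (SE) with an adjusted p of 0.237 in limma. Sdf2l1, an endoplasmic reticulum cochaperone, ran from 7.93 to 8.14 in AA and from 7.57 to 7.76 in SS (adjusted p = 0.309 in limma). Selenom, a selenoprotein of the same compartment, differed by 0.42 ± 0.15 (SE). These genes serve all secretory cells, and fibroblast markers were also higher in AA (list means 0.19 to 0.49, against -0.54 to 0.08 in SS); the part of that in these differences was not tested.

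Sensors that can trigger mucus release were higher in 10 of 12, with 3 higher and 0 lower at an unadjusted p under 0.05. The median was 0.20, from 0.24 within batch 1 and -0.02 within batch 2, and was 0.11 without SS replicate 1, with 8 of 12 higher and 2 at that level. Casp4, an inflammatory caspase, differed by 0.48 ± 0.16 (SE), Duoxa2, the maturation factor of the oxidase DUOX2, by 0.34 ± 0.12 (SE) and Tlr2, a receptor of bacterial lipoproteins, by 0.44 ± 0.18 (SE), or 0.26 without AA replicate 2. Cytokines that act on goblet cells and their receptors were higher in 7 of 11 with 0 at that level, and their median of 0.08 was 0.18 without AA replicate 2 and -0.02 without SS replicate 1. Il33 differed by 0.80 ± 0.43 (SE), with 8.96 in AA replicate 3 against 6.29 to 7.57 elsewhere, Il13, the cytokine of goblet cell hyperplasia, by -0.22 ± 0.14 (SE), or -0.10 without SS replicate 1, and Il22ra2, a decoy receptor of interleukin-22, by -0.31 ± 0.18 (SE), or -0.21 without AA replicate 2. Il33 differed by 0.26 without AA replicate 3. That array had the highest list means of mesothelium (1.32, against -1.21 to 0.33 elsewhere) and macrophage markers (0.99, against -0.62 to 0.49 elsewhere). Their part in the Il33 value was not tested.

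For the epithelium as a whole, 12 of 19 markers were higher, 1 at an unadjusted p under 0.05. The median was 0.02 (0.08 without AA replicate 2 and 0.0035 without SS replicate 1), from 0.11 within batch 1 and -0.02 within batch 2. The list means were -0.04 to 0.14 in AA and -0.16 to 0.05 in SS, with SS replicate 1 the lowest. Of the leading genes, Krt20, a keratin of surface cells, ran from 11.96 to 12.24 in AA and from 11.67 to 11.82 in SS, while Cdh17 and Krt18 differed by 0.17 ± 0.09 (SE) and 0.20 ± 0.13 (SE), or 0.11 and 0.07 without SS replicate 1. Absorptive colonocyte genes were higher in 15 of 22, with 4 higher and 1 lower at that level. Their median was 0.11 (0.06 without AA replicate 2 and 0.02, with 11 of 22 higher, without SS replicate 1). Within batch 1 it was 0.25, with 16 of 22 higher, and within batch 2 -0.03, with 9 of 22. Among them Clca4a differed by 1.00 ± 0.16 (SE) and Prss30 by 0.43 ± 0.13 (SE). Among other cell types, 8 of 9 fibroblast and 5 of 10 smooth muscle markers were higher in AA at that level. So were 4 of 7 mesothelium and 3 of 8 macrophage markers, while 6 of 7 B cell and follicle markers were lower. The smooth muscle, mesothelium and macrophage counts moved with single arrays. They were 7, 2 and 0 without AA replicate 3. Without AA replicate 2 they were 2, 6 and 8. Medians within batch 1 and batch 2 were 0.064 and 1.5 for mesothelium and 0.24 and 1.01 for macrophage markers. Stomach mucous cell markers stayed low in all arrays, with Muc5ac at 5.50 to 5.84 and Tff2 at 5.25 to 5.68.

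The genes whose pattern over the 8 arrays was most like the mean of the 9 members were Pof1b (r = 0.995), Tdp2 (0.992), Ubxn1 (0.991), Tubal3 (0.989), Smyd2 (0.981) and Bpnt2 (0.980), picked as the highest Pearson's r among 16636 other genes, so no test applies. They shared their arrays and batch centring with the members. With the mean taken without Muc4, a choice made after seeing the data, the 6 highest were other genes, with 0 in common. The mean of the 9 members, centred per gene, was 0.11, 0.16, -0.02 and -0.05 in AA and -0.30, 0.03, 0.05 and 0.02 in SS.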

How the data were processed

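RNA of 8 distal colon samples (4 AA, 4 SS; 100 ng labelled per sample) was measured on 1 array each. The authors deposited log2 expression values of probe sets. The submitters' processing notes name RMA (background correction, normalization between arrays, probe summary), Affymetrix Power Tools and Partek 6.4. The build is not given in the sources used here, nor is any filter. The deposited log2 values had array medians of 6.93 to 6.99, and batch means that differed by at most 6e-05 in any probe set, so batch means had been removed. This leaves AA minus SS differences as they were, but a high value in 1 array lowers the others of its batch. The precision is limited by the number of arrays.

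Platform annotation gave 1 symbol to 18154 of 23442 probe sets, which were tested. Another 1559 had several symbols and 3729 were unnamed here. In gene lists the probe set with the highest mean stood for a gene. Differences were tested with limma 3.58.1 in R 4.3.3 (batch and group as terms, 5 residual degrees of freedom, no filter on dim probe sets), adjusted by Benjamini-Hochberg over the 18154, with 0.05 as the threshold. The fit was tested on simulated data. Whether AA minus SS differed between batches was tested as an interaction. Permutation of the labels within batches (36 relabelings) cannot fall under 0.0556. The members and lists were chosen with earlier results of these data known. Named were all measured members, the 3 genes of smallest p in 9 lists, and the 6 genes most like the members' mean; others are said to be picked later or mark cell types and position. The alternatives tried were the batch term, a replicate block, a dim filter, all probe sets, quantile and median scaling, a variance trend, single arrays and batches, and, added after seeing the data, pairs of arrays left out, an epithelium covariate, single arrays left out of the other lists, and member pairs permuted within batches. The deposited table of gene set scores was not used here.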

Additional observations from a re-analysis of the deposited data

Results flagged for a closer look

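In 90 groups of 4 arrays (members, named genes and list means), 8 had 1 array whose gap to the nearest other, as a share of the range, was above Dixon's 95% critical value for 4 samples, where chance flags about 1 in 20. Muc4 in AA replicate 2 was 8.96, against 7.37 to 7.61 in the other AA arrays. The mean of the 9 members was -0.298 in SS replicate 1, against 0.02 to 0.05 in the other SS arrays, and the mean of the mucin glycosylation genes in that array was -0.253, against 0.03 to 0.06. C1galt1c1 was 9.675 in AA replicate 2, against 9.42 to 9.46. Muc1 was 8.517 in AA replicate 4, against 8.82 to 8.86. The mean of the other mucins was 0.266 in AA replicate 3, against -0.02 to 0.0001. St3gal1 was 6.777 in SS replicate 2, against 6.91, and Krt20 was 11.82 in SS replicate 4, against 11.67 to 11.68.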

How the results depend on the processing

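No member had an adjusted p under 0.05 under any alternative run. The count of probe sets past that threshold was 0 in both directions except with the epithelium covariate. With that covariate, added after seeing the data, 22 were higher and 59 lower. At an unadjusted p under 0.05 the main counts were 977 and 490 of 18154 probe sets. They were 1294 and 751 without the batch term and 1013 and 1121 without SS replicate 1. In batch 2 alone they were 958 and 1408, and without SS replicate 4 they were 585 and 325. The dim filter kept only 9077 probe sets, of which 657 were higher and 252 lower at that level. Of the 9 members, 7 were higher in AA, which became 3 in batch 2 alone, 4 to 9 with single arrays left out (4 without SS replicate 1), 4 without AA replicate 2 and SS replicate 1, and 4 with the epithelium covariate. The median difference of 0.046 ran from -0.00844 to 0.0786 with single arrays left out. Spink4 and Zg16 did not turn under any alternative run, but with the epithelium covariate their differences of 0.237 and 0.0495 were 0.00726 and 0.0085. With single arrays left out, differences ran from -0.238 to 0.133 for Muc2, -0.00844 to 0.108 for Muc13, 0.072 to 0.710 for Muc4, -0.0627 to 0.0839 for Agr2, -0.0475 to 0.153 for Spdef, 0.0616 to 0.387 for Spink4, 0.0174 to 0.0811 for Zg16, 0.00525 to 0.095 for Tff3 and -0.132 to 0.0653 for Atoh1. In batch 1 alone Muc2 (0.271) and Atoh1 (0.0578) turned, and in batch 2 alone Muc4 (-0.138), Muc13 (-0.0608), Agr2 (-0.0569) and Spdef (-0.146). Quantile normalization turned Muc13 (-0.0163) and Tff3 (-0.0105), and median centring Muc13 (-0.00408) and Agr2 (-0.00821). Without AA replicate 2 and SS replicate 1, Muc2 moved to -0.310, and Muc4 (-0.0746), Muc13 (-0.0149) and Spdef (-0.0938) turned. Without AA replicate 3 and SS replicate 1, Atoh1 moved to -0.163 and Muc13 (-0.0680) and Agr2 (-0.0777) turned, and with the epithelium covariate Tff3 (-0.0118), Agr2 (-0.0875) and Spdef (-0.00855) did. The cause was not tested. Both pairs of members called over all arrays (Tff3 with Spink4, Zg16 with Spink4) missed the threshold when pairings were permuted within batches (adjusted p = 0.0625 and 0.104, exact permutation). Tff3 with Spink4 was at the smallest p those pairings allow, where a pair alone cannot pass, so its miss shows no weaker likeness. With the replicate number as a block the differences were as without it (Muc2 -0.0724) and 875 probe sets were higher and 369 lower at an unadjusted p under 0.05. Same-numbered arrays had an r of -0.441 to -0.0929 over probe sets. They shared a batch whose means had been removed, which in itself pushes such an r below 0. Each AA array also shared its batch with an SS array of another number. For numbers 1, 3 and 4 the same-number r (-0.324, -0.441 and -0.215) lay below every r with another number (lowest 0.0638, -0.394 and -0.121). For number 2 it was -0.0929, among others of -0.423 to 0.458. In 0 AA arrays was the highest r that with the own number, so these values gave no sign of pairing by number. With 4 arrays a group, differences inside the 95% intervals could not be seen.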

Other observations

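Ranked by Pearson's r over the 8 arrays, the genes most like Muc2 and those most like Tff3 had no gene in common with the 6 most like the members' mean. The highest for Muc2 were Cltc, the clathrin heavy chain (0.992), Bmpr2 (0.973) and Med13 (0.968), and for Tff3 Gstt2 (0.991), Tmem222 (0.977) and Slc7a4 (0.972). These rankings were added after the values were seen.

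Enteroendocrine cells, another secretory lineage of the colon, had 6 of 10 marker genes higher in AA and 4 of them at an unadjusted p under 0.05, against 5.67% of all genes, with a median of 0.20, from 0.125 within batch 1 and 0.166 within batch 2. Without SS replicate 1, which had the lowest list mean, 1 was higher and 1 lower at that level, with a median of 0.21. None had an adjusted p under 0.05 in limma. Their list mean was 0.0051 to 0.16 in AA and -0.24 to -0.02 in SS. Tuft cell markers had 4 of 7 higher and 0 at that level, with a median of 0.04, which was -0.06 without AA replicate 2.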
